A study of Mus musculus with 90 samples.

Results

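The 10 genes described here, of 27654 in the count tables, were chosen by their mRNA at ZT12, which was lower in livers that lack the glucocorticoid receptor (GR) in hepatocytes than in WT livers. They are *Cdip1*, *Tango2*, *Fbxo31*, *Nucks1*, *Gfra1*, *Srrm4*, *St3gal5*, *Mfsd2a*, *Moxd1* and *Scara5*. Zeitgeber time (ZT) counts hours from lights on, so that ZT12 is lights off. Because the ZT12 genotype difference chose the genes, its values are given as a description without a test, and the tests below use the other 5 time points, the diet experiment and the corticosterone experiment.

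GR, encoded by *Nr3c1*, is a nuclear receptor that stays in the cytoplasm with chaperones until it binds corticosterone, the main glucocorticoid of rodents, and then acts in the nucleus as a transcription factor. It binds palindromic DNA elements or works through other factors, and can raise or lower transcription of nearby genes. In the liver it is known for the control of gluconeogenesis, amino acid breakdown and lipid handling in fasting, and in nocturnal animals its hormone peaks around the onset of darkness.

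Polyadenylated RNA of male mouse liver was sequenced in bulk in 90 libraries. In the time series, floxed mice labelled GRfl/fl (called WT) were compared with GRfl/fl x Alb-Cre mice (GR LKO), in which the albumin promoter drives Cre in hepatocytes, so that other liver cells keep the receptor and both genotypes carry the floxed allele. All mice were C57BL/6J on chow and 12 weeks old at the start. By the study's methods, control mice (ctrl.) ate freely until the last week, when they were fed only at night. Calorie-restricted mice (cal. res.) were fed from ZT12 as well, with less food over the weeks until they ate 40% fewer calories. Livers were taken every 4 h at 6 time points, with 3 WT and 3 GR LKO livers per time point on cal. res. On ctrl. the WT and GR LKO groups held 3 and 3 livers at ZT0 and ZT4, 4 and 4 at ZT8 and ZT12, and 4 and 3 at ZT16 and ZT20.

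The other experiments, both at ZT12, used mice labelled WT, whose labels name no floxed allele. The diet experiment compared 3 livers on cal. res. with 3 livers labelled night-restricted. The corticosterone experiment compared 3 livers of night-fed mice injected with corticosterone daily for 7 days with 3 livers of vehicle controls. Each library held 14235473 to 20788575 counts on cal. res. and 10057544 to 17089004 on ctrl. in the time series, 36442195 to 39492146 in the diet experiment and 13739631 to 16077943 in the corticosterone experiment. In the time series the diets were sequenced as separate sets of libraries, so that diet and library set cannot be told apart there and levels were not compared between the diets. Levels are CPM after TMM scaling, and differences are log2 fold changes from edgeR with their standard error (SE). In 2 WT libraries 4 genes of the exocrine pancreas, *Pnlip* the most abundant, stood apart with sums of 416 CPM (replicate 3 at ZT12 on cal. res.) and 187 CPM (replicate 2 at ZT16 on ctrl.), against at most 2.06 CPM in the others. The ZT16 results without the latter library are given below.

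The deletion was seen at every time point in *Nr3c1* itself. Its mRNA ran from 70.5 to 117 CPM in the 40 WT libraries of the time series and from 16.2 to 32.2 CPM in the 38 GR LKO libraries, without overlap. Over the 5 other time points *Nr3c1* was lower in GR LKO by a log2 fold change of -1.87 (SE 0.04, adjusted p 3.0e-23 by edgeR) on cal. res. and of -1.96 (SE 0.05, adjusted p 1.5e-23) on ctrl. Its transcript is also made by liver cells in which the Cre is not active, and fewer cells of a type and less RNA per cell cannot be told apart in bulk tissue.

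At ZT12, the time point of the choice, 9 genes passed the low-count filter on cal. res. and 10 on ctrl. The fitted difference ran from -1.68 (*Nucks1*) to -5.20 (*Scara5*) on the log2 scale on cal. res., and from -0.75 (*Nucks1*) to -6.79 (*Moxd1*) on ctrl. The values of *Scara5* and *Moxd1* depend on the handling of counts near 0 in GR LKO livers. No call is given for the 10 genes there. Among all genes fitted at ZT12, 7.84% were called lower and 7.42% higher in GR LKO on cal. res., and 1.27% and 0.814% on ctrl.

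The first question was whether the genotype difference extends beyond ZT12. A gene is called when its adjusted p, over all genes tested, is under 0.05. With the 5 other time points fitted together, 9 of 9 genes past the filter were called lower in GR LKO on cal. res. (13.6% of 12974 genes were), and 9 of 10 on ctrl. (6.97% of 12762 genes were). The exception was *Nucks1* on ctrl., and *Moxd1* was too low to be tested on cal. res. *Scara5* on cal. res. and *Moxd1* on ctrl. passed the filter through WT livers alone and had to differ to pass, so that their calls add no support. The median log2 fold change of the tested genes was -0.86 on cal. res. and -0.56 on ctrl., and the median over all genes was 0.00 in both fits.

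On cal. res. the number of genes called lower changed over the day. It was 2 of 9 at ZT0 (0.222% of all genes), 2 of 8 at ZT4 (0.299%), 7 of 8 at ZT8 (1.38%), 6 of 8 at ZT16 (2.02%) and 6 of 9 at ZT20 (0.662%). DESeq2, with its own filter, called 4, 4, 8, 8 and 6 of the 10 genes lower, against 1.83%, 1.63%, 2.7%, 3.56% and 2.44% of all genes. Its 8 at ZT16 include *Scara5*, which was over edgeR's count limit in 2 WT and 0 GR LKO livers and adds no support. With a library left out, the ZT8 count became 2 without any 1 of the GR LKO livers and 5 or 6 without a WT liver. The ZT16 count became 2 without WT replicate 1 or any 1 of the GR LKO livers, 4 without WT replicate 2 and 5 without WT replicate 3. The ZT20 count became 1 without any 1 of the WT livers and 4 or 5 without a GR LKO liver. At ZT0 it became 0 without WT replicate 1 or 3 or GR LKO replicate 2 or 3 and 1 without WT replicate 2, and at ZT4 it became 0 without replicate 2 of either genotype and 1 without any other library.

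On ctrl. the calls lay mainly at night. At ZT0 edgeR called 0 of 9 genes lower (0.0936% of all genes), while 4 were lower at an unadjusted p under 0.05 (6.61%) and DESeq2 called 2 (0.784%). At ZT4 edgeR called 0 of 9 (0.0508%), with 4 lower at an unadjusted p under 0.05 (4.4%), *Mfsd2a* among them, and 0 called by DESeq2 (0.674%). The count was 3 of 9 at ZT8 (0.596%), 9 of 10 at ZT16 (0.947%) and 4 of 10 at ZT20 (0.193%), against 3, 9 and 7 by DESeq2 (1.14%, 2.16% and 1.02% of all genes). In these counts, *Mfsd2a* at ZT4 and ZT8, and *Moxd1* at ZT16 and, by DESeq2, at ZT20, passed edgeR's filter through WT livers alone and add no support. With a library left out, the ZT16 count stayed at 9 without any 1 of the WT livers, and became 7 without GR LKO replicate 1 and 5 without replicate 2 or 3. The ZT8 count became 0 without WT replicate 1 or any 1 of the GR LKO livers, 1 without WT replicate 2 or 4 and 2 without WT replicate 3. The ZT20 count became 0 when GR LKO replicate 2 was left out, 1 when WT replicate 2 was, 2 when WT replicate 4 or GR LKO replicate 1 or 3 was left out, and 3 when WT replicate 1 or 3 was.

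Calls in the other direction, higher in GR LKO, numbered 0 at each of these time points and in the fits over 5, by edgeR and by DESeq2, and 0 genes were higher at an unadjusted p under 0.05. Of all genes, 0.28%, 0.391%, 1.17%, 2.53% and 0.812% were higher from ZT0 to ZT20 on cal. res., 0.443%, 0.144%, 0.838%, 1.03% and 0.227% on ctrl., and 12.4% and 8.42% in the fits over 5 time points. Over these 12 fits, 0.789% to 11.2% of all genes were higher by DESeq2 and 5.35% to 17.4% at an unadjusted p under 0.05. Of the 39 calls by edgeR at single time points, with *Mfsd2a* at ZT8 and *Moxd1* at ZT16 on ctrl. among them, 9 were also made with each library left out in turn, and DESeq2 made 39 of the 39. Separate ranges of the 2 genotypes, given below, were common among all genes. Lower in GR LKO without overlap were 10.5%, 10.5%, 12.9%, 12% and 16.2% at the 5 other time points on cal. res. On ctrl. 10.1%, 7.89%, 3.24%, 8.06% and 6.34% were. At ZT12 the shares were 18.8% on cal. res. and 4.05% on ctrl.

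**Figure D1:**
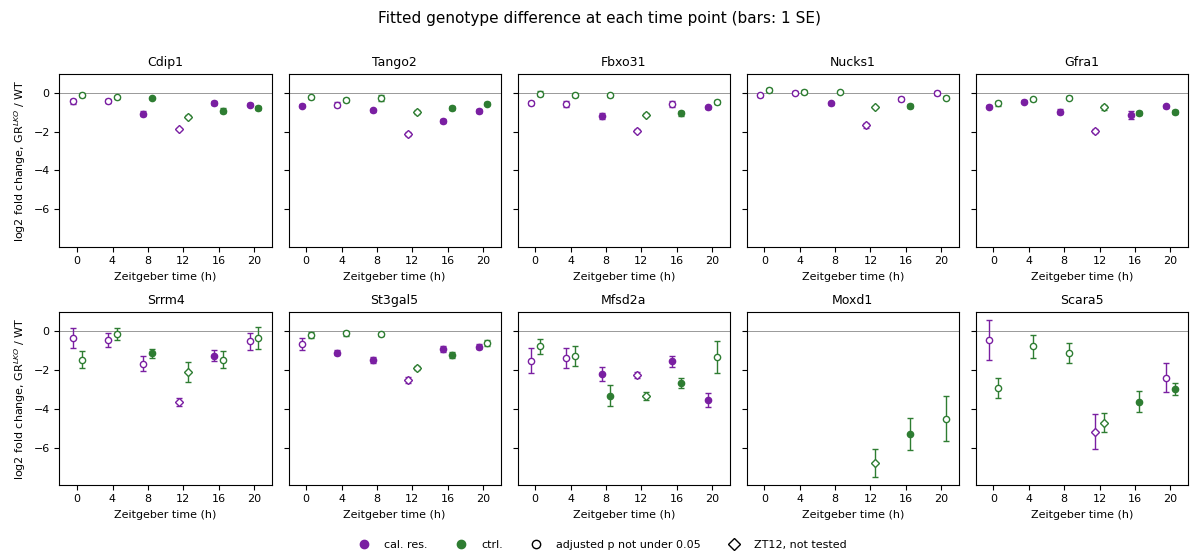
Fitted log2 fold change of GR LKO over WT (y axis) at each time point in hours (x axis) for each gene, purple for cal. res. and green for ctrl., with bars of 1 SE. Filled circles were called, open circles were not, and open diamonds mark ZT12, given without a test. On ctrl., *Fbxo31*, *Nucks1* and *St3gal5* lie near 0 from ZT0 to ZT8 and below it at ZT16.

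Liver cell markers were read beside these differences. The 7 hepatocyte markers, with *Alb* the most abundant, summed to 67990 to 169015 CPM over the 90 libraries, with no marker at 0 in most libraries. Their sum at ZT8 on cal. res. was 135251.3, 113809.7 and 113285.0 CPM in WT and 111714.0, 107548.5 and 109117.0 CPM in GR LKO livers. At ZT16 it was 134978.4, 139970.4 and 133522.0 CPM in WT and 126298.5, 102163.5 and 129998.0 CPM in GR LKO livers on cal. res. On ctrl. at ZT16 the sums were 95869, 96314, 93179 and 88654 CPM in WT and 86287, 71746 and 83923 CPM in GR LKO livers. The hepatocyte sum was thus lower in each GR LKO liver than in each WT liver at these points, and in 6 of 10 comparisons outside ZT12, with a ratio of group means between 0.777 and 1.00 over the 10.

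Markers of other cells were much lower, at a median of 43.7 CPM for 5 cholangiocyte genes, 243 CPM for 7 stellate cell genes, 12.8 CPM for 7 portal fibroblast genes, 168 CPM for 6 endothelial genes, 112 CPM for 6 Kupffer cell genes and 529 CPM for 5 erythrocyte genes. The sums of Kupffer, stellate and erythrocyte markers overlapped between the genotypes in 10 of the 10 comparisons outside ZT12. Portal fibroblast sums were higher without overlap in GR LKO in 5 of 10, and sums of 5 adipocyte genes (median 8.46 CPM) in 8 of 10. Of the adipocyte genes, *Adipoq*, *Plin1* and *Lep* were at 0 in most libraries, so that the sums rest on *Fabp4* and *Cidec*, and *Cidec* was the most abundant in each GR LKO liver at ZT16 on cal. res. and at ZT0, ZT8 and ZT20 on ctrl. Endothelial sums were higher in 2 and lower in 1, cholangiocyte sums lower in 1, and neutrophil (5 genes, median 2.26 CPM) and exocrine pancreas (4 genes, 0.139 CPM) sums higher in 1 and 1. *Epcam*, *Ngp*, *Prss2*, *Cpa1* and *Pnlip* were also at 0 in most libraries. At ZT12 on cal. res. the sums of hepatocyte (ratio of GR LKO to WT means 0.76) and exocrine pancreas markers were lower without overlap in GR LKO, and those of cholangiocyte (1.11), endothelial (1.25), Kupffer (2.11) and portal fibroblast markers (2.29) higher. At ZT12 on ctrl. exocrine pancreas sums were lower without overlap. The part of these marker differences in the results was not tested.

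The membrane and transport genes come first. *Mfsd2a* (ENSMUSG00000028655, chromosome 4, 122946850 to 122961188 on the minus strand of mm10) encodes a sodium-dependent transporter that carries lysophosphatidylcholine with long-chain fatty acids into cells. At ZT12 it stood at 324, 369 and 443 CPM in WT and at 67.6, 81.2 and 91.2 CPM in GR LKO livers on cal. res., and at 117, 106, 100.1 and 146 CPM in WT and 14.3, 9.3, 13.2 and 9.36 CPM in GR LKO livers on ctrl. Each WT liver lay above each GR LKO liver there. At ZT20 on cal. res. the WT livers held 53.7, 31.1 and 26 CPM, against 2.66, 4.34 and 2.21 CPM in GR LKO. At ZT16 on ctrl. the WT livers held 53.5, 47.4, 44 and 53.6 CPM, against 5.92, 11.9 and 5.39 CPM in GR LKO. The groups were far apart at both points, and the lowest WT value was several times the highest GR LKO value.

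The *Mfsd2a* difference was -3.56 (SE 0.36, adjusted p 0.0116 by edgeR) at ZT20 on cal. res. and -2.69 (SE 0.26, adjusted p 0.00378) at ZT16 on ctrl., and both calls were made with each library left out. Outside ZT12, with 5 time points together, it was -2.01 (SE 0.27, adjusted p 2.5e-06) on cal. res. and -1.92 (SE 0.33, adjusted p 7.7e-05) on ctrl., with separate ranges in 7 of 10 comparisons (3.24% to 16.2% of all genes per comparison). At ZT20 on ctrl. the ranges overlapped, because GR LKO replicate 1 held 16.7 CPM against 1.99 and 1.31 CPM in the others, while WT livers held 21.5, 8.94, 29.8 and 10.6 CPM. That GR LKO library also stood apart over all genes, with Pearson's r of log values of 0.978 and 0.979 with replicates 2 and 3. These had 0.987 with each other, and 0.978 was the lowest r among 102 pairs of libraries within groups. *Mfsd2a* kept a day course without hepatocyte GR: among the 5 other time points the time-of-day F test called it in GR LKO livers on cal. res. (log2 range of the fitted time points 3.70, adjusted p 0.00049) and on ctrl. (3.17, adjusted p 0.0197). The ctrl. call was lost without replicate 2 or 3, with an adjusted p of up to 0.112.

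*St3gal5* (ENSMUSG00000056091, chromosome 6, 72097592 to 72154571, plus strand) encodes the sialyltransferase that makes ganglioside GM3 from lactosylceramide. Its ZT12 levels were 367, 483 and 520.4 CPM in WT and 76.6, 91.7 and 71.2 CPM in GR LKO livers on cal. res., and at 175, 208, 175 and 166 CPM against 43.4, 42, 52.5 and 53.8 CPM on ctrl. At ZT8 on cal. res. the WT livers held 145, 170.0 and 162 CPM, against 64.7, 58.8 and 45 CPM in GR LKO, so that the groups stayed apart. At ZT8 on ctrl. the WT livers held 56.7, 60.5, 52.9 and 55.2 CPM, against 58.5, 48.6, 46.1 and 44.6 CPM in GR LKO. There GR LKO replicate 1 lay within the WT range. At ZT16 on ctrl. the values were 169, 126, 166 and 139 CPM in WT and 73.5, 54.9 and 60 CPM in GR LKO livers, again without overlap.

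The *St3gal5* difference was -1.50 (SE 0.14, adjusted p 0.00414 by edgeR) at ZT8 on cal. res. and -1.26 (SE 0.14, adjusted p 0.00708) at ZT16 on ctrl., both also called with each library left out. With the 5 other time points together, it was -1.02 (SE 0.10, adjusted p 2.5e-08) on cal. res. and -0.49 (SE 0.10, adjusted p 0.00068) on ctrl. The interaction of genotype and diet over these time points was -0.54 (SE 0.15, adjusted p 0.0401), so that the fitted loss over these time points together was larger on cal. res. A constant shift between the library sets drops out of this term. A genotype difference that depends on the library set does not, and it cannot be told apart from an effect of diet. At ZT16 the fitted loss was smaller on cal. res., at -0.94 (SE 0.15, adjusted p 0.0144), than on ctrl., and whether the diets differ at that point was not tested. The interaction call was lost without replicate 1, 2 or 3, with an adjusted p of up to 0.507 and a difference between -0.66 and -0.39. In WT livers on ctrl. the levels ordered as ZT12, ZT16, ZT20, ZT8, ZT0 and ZT4, with ranges that overlapped between ZT12 and ZT16, ZT20 and ZT8, and ZT0 and ZT4.

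*Gfra1* (ENSMUSG00000025089, chromosome 19, 58235604 to 58455909, minus strand) encodes the membrane-anchored co-receptor with which Ret binds the growth factor GDNF. At ZT12 it stood at 440.2, 457 and 462 CPM in WT and 122, 117 and 110.0 CPM in GR LKO livers on cal. res., and at 150.4, 221, 219 and 224 CPM against 120.2, 123, 110.3 and 132 CPM on ctrl. At ZT16 on ctrl. the WT livers held 226, 207, 186 and 176 CPM, against 93.7, 96.8 and 99.2 CPM in GR LKO. Groups were apart at each of these points, and *Gfra1* ranges did not overlap in 10 of the 10 comparisons outside ZT12 (3.24% to 16.2% of all genes per comparison).

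In the fit of the 5 other time points, the *Gfra1* difference was -0.81 (SE 0.07, adjusted p 3.4e-09 by edgeR) on cal. res. and -0.63 (SE 0.07, adjusted p 2.1e-07) on ctrl. At ZT16 on ctrl. it was -1.04 (SE 0.09, adjusted p 0.00281), a call also made with each library left out. The smallest ratio of WT to GR LKO means was 1.21 and the largest 2.21 among the 10 comparisons. In GR LKO livers *Gfra1* still varied over the day, with a fitted log2 range of 0.61 (adjusted p 3.1e-05) on cal. res. and 0.44 (adjusted p 0.00138) on ctrl. The latter call was lost without replicate 2, with an adjusted p of 0.0674.

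*Scara5* (ENSMUSG00000022032, chromosome 14, 65666403 to 65764826, plus strand) encodes a class A scavenger receptor that takes up ferritin. On ctrl. it stood at 18.5, 18, 19.1 and 44.1 CPM in WT and 0.521, 1.71, 1.2 and 0.337 CPM in GR LKO livers at ZT12, and at 12, 20.3, 15.9 and 26.4 CPM against 2.2, 1.79 and 2.89 CPM at ZT20. On cal. res. at ZT12 it stood at 7.5, 14.8 and 10.5 CPM in WT and at 0.866, 0 and 0 CPM in GR LKO livers. At ZT8 on cal. res. WT replicate 2 held 8.68 CPM, while the other WT livers held 0.17 and 0.162 CPM, against 0, 0 and 0 CPM in GR LKO. *Scara5* was thus low on cal. res., with 1 WT liver apart from the others at ZT8.

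Fitted over the 5 other time points, the *Scara5* difference was -2.31 (SE 0.32, adjusted p 4.0e-06 by edgeR) on ctrl., called with each replicate number left out. On cal. res. it passed the filter through WT livers alone, so that the fitted value, -2.70, depends on the handling of low counts. Its call there adds no support and was lost without replicate 3. *Scara5* passed the filter at ZT0, ZT12 and ZT20 on cal. res. but not at ZT4, ZT8 and ZT16.

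The enzymes follow. *Moxd1* (ENSMUSG00000020000, chromosome 10, 24223517 to 24302790, plus strand) encodes a copper-dependent monooxygenase of the dopamine beta-hydroxylase family that resides in the endoplasmic reticulum. On ctrl. it stood at 34.7, 30.6, 11.9 and 8.96 CPM in WT and 0.13, 0.184, 0.478 and 0 CPM in GR LKO livers at ZT12, and at 17.7, 35.8, 10.4 and 8.81 CPM against 0, 0.635 and 0.781 CPM at ZT16. WT livers spread widely at both points but lay above each GR LKO liver. In the 36 cal. res. libraries *Moxd1* had 7 counts in all and was at 0 in 32, where a count of 0 allows 0.144 to 0.211 CPM. The effect of the genotype on cal. res. was therefore not detectable at this depth.

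Outside ZT12 on ctrl. the GR LKO livers held 18 counts of *Moxd1* at ZT16 and 1 to 4 at each other time point, and the gene passed the filter through WT livers alone. The fitted difference over the 5 time points, -4.85, therefore depends on the handling of low counts, and its call adds no support. Outside ZT12 and ZT16 its WT levels were low: at ZT4 they were 0.227, 0.625 and 1.72 CPM, and at ZT20 1.05, 7.06, 0.915 and 1.81 CPM. In WT livers on ctrl. the levels ordered as ZT12, ZT16, ZT20, ZT8, ZT0 and ZT4, with a gap between ranges only from ZT16 to ZT20. The time-of-day test in WT called it (adjusted p 0.00418) but not without replicate 2 (adjusted p 0.0683). In the genotype comparisons, 4 WT livers at ZT16 and 4 at ZT20 were over the count limit, against 2 at ZT0, 1 at ZT4 and 1 at ZT8. *Moxd1* thus passed the filter through the time points where it was high, and this call adds no support either.

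*Fbxo31* (ENSMUSG00000052934, chromosome 8, 121549440 to 121578806, minus strand) encodes an F-box protein that brings substrates to an SCF ubiquitin ligase. Its ZT12 levels were 99.1, 104 and 112 CPM in WT and 28.7, 27.4 and 26 CPM in GR LKO livers on cal. res., and at 78.8, 63.7, 70.6 and 77.8 CPM against 35, 34.4, 32.8 and 31.2 CPM on ctrl. At ZT16 on ctrl. the WT livers held 45.3, 40.1, 39 and 37.4 CPM, against 18.5, 22.9 and 16.6 CPM in GR LKO. At ZT0 on ctrl. they held 22.4, 20.6 and 23.7 CPM and 24.4, 20.5 and 19.5 CPM. The groups were apart at ZT12 and ZT16 and overlapped at ZT0.

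The *Fbxo31* difference at ZT16 on ctrl. was -1.07 (SE 0.12, adjusted p 0.00739 by edgeR), also called with each library left out. Outside ZT12, with 5 time points together, it was -0.75 (SE 0.08, adjusted p 4.6e-08) on cal. res., with separate ranges at 5 of 5 (10.5% to 16.2% of all genes per time point), and -0.37 (SE 0.08, adjusted p 0.00167) on ctrl., with separate ranges at 2 of 5 (3.24% to 10.1%). The interaction of genotype and diet, -0.38 (SE 0.12), had an adjusted p of 0.0797 by edgeR and 0.0412 by DESeq2. A day course remained in GR LKO livers, with a fitted log2 range of 0.88 (adjusted p 0.00035) on cal. res. and 0.81 (adjusted p 0.00057) on ctrl.

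*Tango2* (ENSMUSG00000013539, chromosome 16, 18300825 to 18348103, minus strand) encodes a protein named for transport and Golgi organization, and its loss in people causes metabolic crises. At ZT12 it stood at 69, 69.7 and 85 CPM in WT and 17.8, 16.6 and 17 CPM in GR LKO livers on cal. res., and at 36, 32.2, 30.9 and 37.3 CPM against 15.9, 17.8, 19.2 and 15.6 CPM on ctrl. At ZT16 the WT livers held 61.3, 57.3 and 52.4 CPM, against 19.9, 21.1 and 21.4 CPM in GR LKO on cal. res., and 39, 35.6, 31 and 38.8 CPM against 19.7, 22.2 and 20.6 CPM on ctrl. The WT and GR LKO groups were apart at each of these points. *Tango2* values in GR LKO livers changed little over the day: at the 5 other time points they ran from 15.5 to 21.4 CPM, with a median of 19.7, on cal. res., and from 13.9 to 22.2 CPM, with a median of 19.2, on ctrl.

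In the interaction of diet with genotype outside ZT12, 2 of 10 genes were called with a lower value on cal. res. (1.22% of all genes), *Tango2* and *St3gal5*, and 0 with a higher one (0.399%), with 3 and 0 at an unadjusted p under 0.05 (8.93% and 5.37%). DESeq2 called 3 with a lower value (2.57%) and 0 with a higher one (0.93%). The *Tango2* difference at ZT16 was -1.46 (SE 0.09, adjusted p 0.00042 by edgeR) on cal. res. and -0.79 (SE 0.10, adjusted p 0.00967) on ctrl., and at ZT8 on cal. res. it was -0.92 (SE 0.09, adjusted p 0.00399). These calls were also made with each library left out. With the 5 other time points together, it was -0.93 (SE 0.07, adjusted p 8.9e-11) on cal. res. and -0.45 (SE 0.06, adjusted p 1.7e-06) on ctrl. The interaction of genotype and diet was -0.48 (SE 0.09, adjusted p 0.00161), so that the fitted loss was larger on cal. res., but without replicate 2 its adjusted p was 0.224. Diet and library set cannot be told apart in these interaction results. The time-of-day test called *Tango2* in WT livers on cal. res. (log2 range 1.06, adjusted p 2.2e-06) and ctrl. (0.75, adjusted p 8.3e-05). In GR LKO livers the range was 0.23 on both diets (adjusted p 0.301 and 0.465). Whether the day courses differ between the genotypes was not tested.

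The nuclear genes and the gene of apoptosis signalling come last. *Cdip1* (ENSMUSG00000004071, chromosome 16, 4750348 to 4790292, minus strand) encodes a pro-apoptotic membrane protein, first described as a p53 target and related to *Litaf*. Its ZT12 levels were 297, 304 and 308 CPM in WT and 84.7, 83.1 and 82.8 CPM in GR LKO livers on cal. res., and at 130.0, 129, 129 and 144 CPM against 58.6, 53, 59.6 and 55.1 CPM on ctrl. At ZT16 on cal. res. the WT livers held 82.1, 79.5 and 71 CPM, against 49.1, 53.9 and 56.7 CPM in GR LKO. The WT livers at ZT16 were thus within the range that GR LKO livers held earlier in the day, yet still above the GR LKO livers of the same time.

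In the fit of the 5 other time points, the *Cdip1* difference was -0.63 (SE 0.07, adjusted p 5.2e-08 by edgeR) on cal. res. and -0.49 (SE 0.07, adjusted p 7.5e-06) on ctrl., with separate ranges in 9 of 10 comparisons (3.24% to 16.2% of all genes per comparison). In WT livers on cal. res. the levels ordered as ZT12, ZT8, ZT4, ZT0, ZT20 and ZT16. Ranges were apart between ZT12 and ZT8, ZT8 and ZT4, and ZT20 and ZT16, and the other neighbours overlapped. On ctrl. the order was ZT12, ZT16, ZT20, ZT8, ZT4 and ZT0, with ranges apart from ZT12 to ZT16 and from ZT20 to ZT8.

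*Nucks1* (ENSMUSG00000026434, chromosome 1, 131910534 to 131936321, plus strand) encodes a DNA-binding nuclear protein with roles in transcription and DNA repair. At ZT12 it stood at 151, 142 and 141 CPM in WT and 51.9, 45.4 and 39 CPM in GR LKO livers on cal. res., and at 83.8, 91.2, 86 and 94 CPM against 51.5, 53, 54.1 and 53.2 CPM on ctrl. At ZT16 on ctrl. the WT livers held 91.6, 74.6, 82.2 and 85 CPM, against 57.3, 46.9 and 52.3 CPM in GR LKO. At ZT4 on cal. res. they held 58.2, 61.9 and 59 CPM and 57.8, 59.6 and 60.6 CPM. The groups were apart at ZT12 and at ZT16 on ctrl., and lay together at ZT4.

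Fitted over the 5 other time points, the *Nucks1* difference was -0.22 (SE 0.05, adjusted p 0.00309 by edgeR) on cal. res., called with each replicate number left out. On ctrl. it was -0.15 (SE 0.06, adjusted p 0.108), which is not past the threshold. The ratio of WT to GR LKO means ran from 0.908 to 1.60 over the 10 comparisons, with separate ranges in 5 (3.24% to 16.2% of all genes per comparison). In GR LKO livers on cal. res. the time-of-day test called *Nucks1* (log2 range 0.47, adjusted p 0.00659), with lower levels at ZT8 than at ZT0, ZT4, ZT16 and ZT20. That call was lost without replicate 1 (adjusted p 0.0994).

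*Srrm4* (ENSMUSG00000063919, chromosome 5, 116439275 to 116591817, minus strand) encodes a splicing factor best known for the inclusion of microexons in neurons. At ZT12 on cal. res. it stood at 8.83, 9.9 and 9.55 CPM in WT and 0.693, 0.847 and 0.677 CPM in GR LKO livers, and on ctrl. at 3.1, 1.35, 2.85 and 7.44 CPM against 0.456, 0.856, 0.797 and 1.28 CPM. At ZT16 on cal. res. the WT livers held 3.5, 3.83 and 3.4 CPM, against 0.924, 1.73 and 1.75 CPM in GR LKO. At ZT20 on cal. res. they held 4.89, 2.97 and 4.21 CPM and 4.67, 1.51 and 1.83 CPM. Levels were low throughout, and GR LKO replicate 1 at ZT20 lay among the WT livers.

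Outside ZT12, with 5 time points together, the *Srrm4* difference was -0.86 (SE 0.22, adjusted p 0.00436 by edgeR) on cal. res. and -0.90 (SE 0.21, adjusted p 0.0028) on ctrl. The first call was lost without replicate 2 (adjusted p 0.0892), and the second was made with each replicate number left out. Ranges were separate in 5 of the 10 comparisons (3.24% to 16.2% of all genes per comparison).

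**Figure D2:**
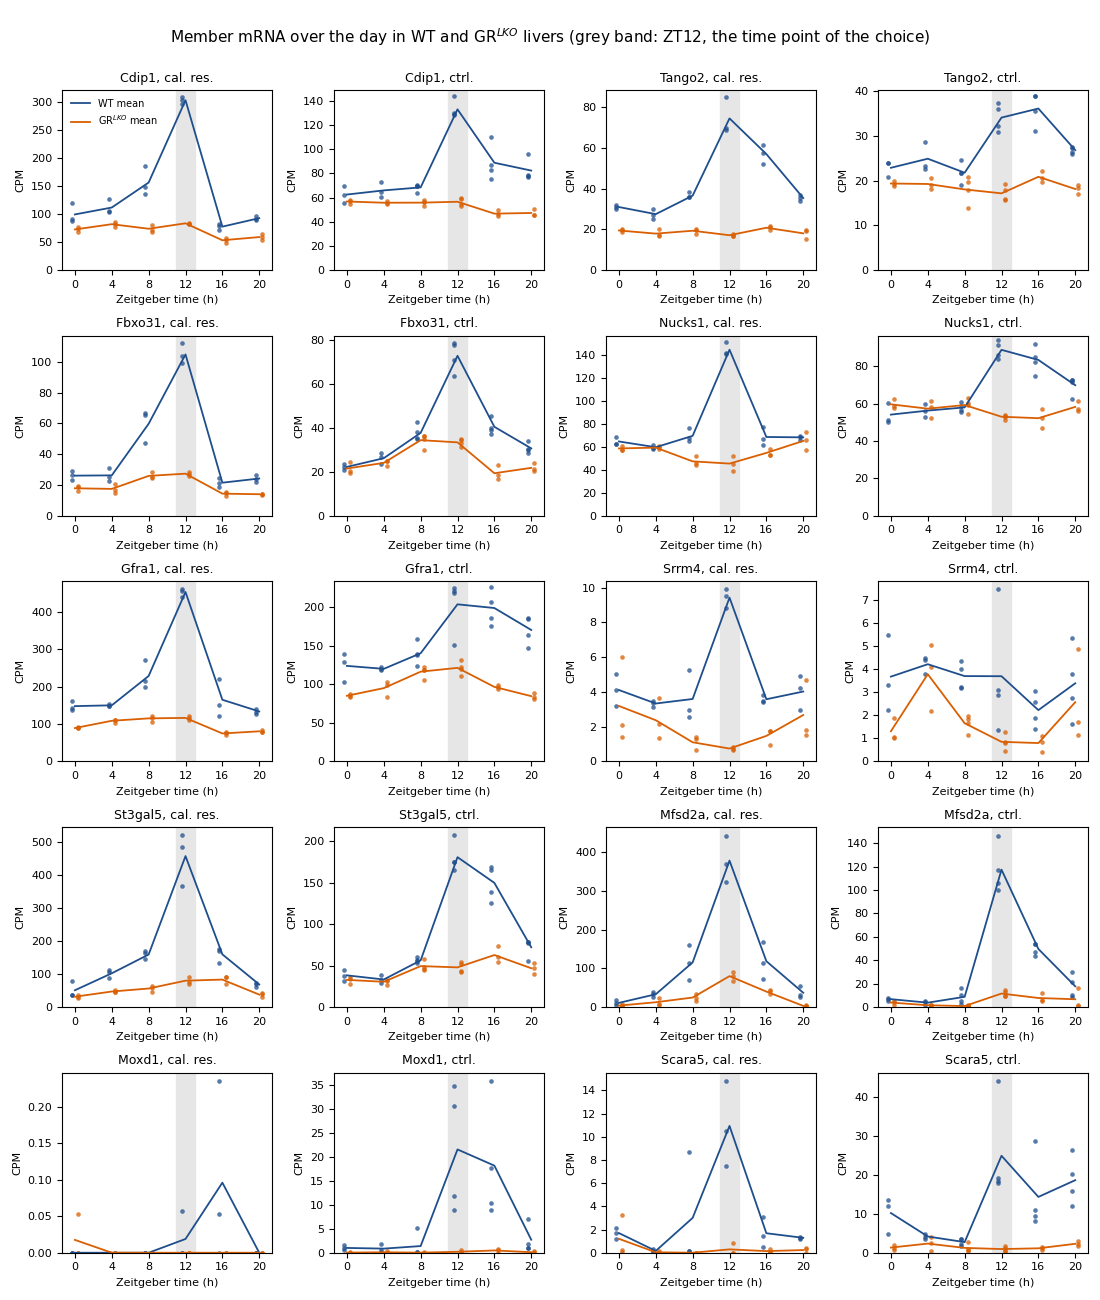
CPM (y axis, from 0) against Zeitgeber time in hours (x axis) for each gene and diet; points are livers, lines join group means, blue is WT and orange GR LKO, and the grey band marks ZT12. WT means of *Mfsd2a*, *Scara5*, *Cdip1*, *Fbxo31*, *Nucks1*, *Gfra1* and *St3gal5* peak at ZT12, whose values chose the genes, on both diets. On ctrl. the WT mean of *Tango2* peaks at ZT16 and that of *Srrm4* at ZT4. *Tango2* in GR LKO livers stays between 13.9 and 22.2 CPM.

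Time of day was tested in each group over the 5 other time points. On cal. res. 6 of 9 genes were called in WT livers (49.2% of all genes) and 6 of 8 in GR LKO livers (51.3%). On ctrl. 9 of 10 were called in WT livers (38.6%) and 6 of 9 in GR LKO livers (33.2%). The 9 include *Moxd1*, which passed the filter through the time points where it was high and adds no support. The GR LKO count on ctrl. became 4 without replicate 1, 2 without replicate 2, 3 without replicate 3 and 6 without replicate 4. In WT livers the count became 7 without replicate 2 on ctrl., and on cal. res. 5 without replicate 1 and 7 without replicate 2. The median fitted log2 range of the tested genes was 1.06 in WT and 0.74 in GR LKO livers on cal. res., against 0.62 and 0.65 over all genes, and 0.89 and 0.81 on ctrl., against 0.49 and 0.52. These medians are over 9 and 8 genes on cal. res. and 10 and 9 on ctrl., so that the genotypes are not compared on the same genes.

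The genes did not all share 1 day course. Pearson's r of log2 CPM between pairs of genes, over libraries outside ZT12, had a median of 0.33 over 28 pairs in 15 WT libraries on cal. res. and of 0.65 over 45 pairs in 18 WT libraries on ctrl. In GR LKO livers the medians were -0.15 over 28 pairs in 15 libraries and -0.09 over 45 pairs in 16 libraries. The 45 pairs include those of *Moxd1*, which held 0 to 0.781 CPM in these GR LKO livers, with a median of 0. Its r values there rest on counts near 0 and add no support. *Scara5*, *Srrm4* and *Mfsd2a* were also low in these livers, with medians of 1.31, 1.68 and 1.97 CPM. The part of low counts in the lower medians of r was not tested. In WT livers on ctrl. the r of *Srrm4* with every other gene was negative, from -0.63 to -0.26. The highest r was that of *St3gal5* and *Mfsd2a* in WT livers on ctrl. (0.91) and in GR LKO livers on cal. res. (0.87). It was that of *Cdip1* and *Fbxo31* in WT livers on cal. res. (0.87), and of *Fbxo31* and *Gfra1* in GR LKO livers on ctrl. (0.79). In that last group the r of *St3gal5* and *Mfsd2a* was 0.24. These correlations describe libraries that share time points and are given without a test.

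Outside the 10 genes, those most alike in level to the mean of 9 of them, without *Moxd1*, were *Eif4ebp3* (r 0.92 on cal. res. and 0.92 on ctrl.), *Fkbp5* (0.93 and 0.90), *E030018B13Rik* (0.90 and 0.92), *Il1r1* (0.89 and 0.88) and *Fam234b* (0.88 and 0.87). Likeness was the mean of 2 Pearson correlations, over 36 libraries on cal. res. and 42 on ctrl., ZT12 included, among 12624 genes. Since the ZT12 values chose the 10 genes, the likeness follows in part from that choice. It is given as a description and adds no support. For single genes the most alike was *Il1r1* for *Cdip1*, *Eif4ebp3* for *Tango2*, *Pptc7* for *Fbxo31*, *Fkbp5* for *Nucks1* and *St3gal5*, *Sult1d1* for *Gfra1*, *Cp* for *Srrm4*, *Errfi1* for *Mfsd2a* and *E030018B13Rik* for *Scara5*.

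The diet experiment asked how calorie restriction changes these genes at ZT12 in mice with GR. In it 8 of 10 genes were called higher on cal. res. (23.5% of all genes) and 2 of 10 lower (23.6%), and DESeq2 called 8 higher and 2 lower as well (19.9% of all genes in each direction). Without overlap of the groups, 8 were higher (29% of all genes) and 2 lower (30%), *Moxd1* among the 2. *St3gal5* stood at 172, 219 and 230.3 CPM on night-restricted feeding and at 516, 612 and 619.7 CPM on cal. res. *Mfsd2a* stood at 168, 144 and 185 CPM against 417, 381 and 470.5 CPM. Each cal. res. liver lay above each control liver for both genes, and the differences were 1.49 (SE 0.13, adjusted p 0.00032 by edgeR) and 1.35 (SE 0.12, adjusted p 0.00033).

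*Cdip1* stood at 94.3, 98.2 and 102 CPM on night-restricted feeding and at 244, 236 and 243 CPM on cal. res., a difference of 1.29 (SE 0.07, adjusted p 6.4e-05 by edgeR). *Tango2* stood at 37, 38.3 and 33.7 CPM against 86.8, 81.4 and 69.4 CPM (1.12, SE 0.10, adjusted p 0.00033), and *Fbxo31* at 58.6, 55.4 and 56.3 CPM against 119.5, 131 and 125 CPM (1.14, SE 0.07, adjusted p 0.00011). Replicates of these 3 genes lay close together and the groups far apart. *Nucks1* and *Gfra1* rose less, by 0.52 (SE 0.08, adjusted p 0.00208) and 0.48 (SE 0.08, adjusted p 0.00279), in 3 of 3 livers each. *Srrm4* stood at 2.22, 3.74 and 4.28 CPM against 6.88, 6.11 and 12.9 CPM (1.34, SE 0.35, adjusted p 0.0168), and without control replicate 1 its adjusted p was 0.053.

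*Moxd1* and *Scara5* went the other way. *Moxd1* stood at 1.02, 2.64 and 17.9 CPM on night-restricted feeding and at 0.0853, 0.026 and 0.0273 CPM on cal. res. *Scara5* stood at 9.63, 12.5 and 27.5 CPM against 5.26, 4.83 and 2.97 CPM. Control replicate 3 was the highest for both genes, and the groups did not overlap. The *Scara5* difference was -1.92 (SE 0.42, adjusted p 0.00831 by edgeR), called with each library left out, and -1.35 without control replicate 3. *Moxd1* had 5 counts in all in the cal. res. livers and passed the filter through control livers alone. Its fitted value, -7.20, or -5.24 without control replicate 3, thus depends on the handling of low counts, and its call adds no support. The hepatocyte marker sum was 85007, 85476 and 89017 CPM on night-restricted feeding and 149721.4, 152169.9 and 154404.3 CPM on cal. res. Stellate (ratio of means 1.40), endothelial (1.47) and neutrophil sums (2.22) were also higher on cal. res. without overlap, and portal fibroblast sums (0.567) lower. The part of these markers in the results was not tested.

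The corticosterone experiment asked whether the hormone alone, with food at night, changes these genes. EdgeR called 3 of 10 higher (4.47% of all genes), and 9 had an unadjusted p under 0.05 in this direction (13.2%), while DESeq2 called 7 (6.48%). *Moxd1*, among the 9, and *Srrm4*, among the 9 and the 7, passed edgeR's filter through corticosterone livers alone and add no support. EdgeR called 0 of 10 lower (3.64%), as did DESeq2 (5.05%), and 0 were lower at an unadjusted p under 0.05 (12.8%). Without overlap of the groups, 9 of 10 were higher (16.7% of all genes) and 0 lower (16.1%). *Moxd1* and *Srrm4* are among these 9 as well and add no support. *Scara5* stood at 4.53, 3.05 and 15.9 CPM in vehicle and at 51.5, 66.6 and 59.3 CPM in corticosterone livers. *St3gal5* stood at 132, 85.5 and 45.9 CPM against 226, 259 and 277 CPM. *Fbxo31* stood at 37.2, 28.2 and 31.5 CPM against 67, 106 and 75.6 CPM. The groups were apart for the 3 genes, vehicle replicate 3 was the highest vehicle liver for *Scara5* and the lowest for *St3gal5*, and corticosterone replicate 2 was the highest for *Fbxo31*.

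The differences were 2.92 (SE 0.54, adjusted p 0.0224 by edgeR) for *Scara5*, 1.53 (SE 0.34, adjusted p 0.0374) for *St3gal5* and 1.36 (SE 0.19, adjusted p 0.0103) for *Fbxo31*, each higher in 3 of 3 livers. The *Fbxo31* call was lost without vehicle replicate 2 (adjusted p 0.0598). The *St3gal5* call was lost without vehicle replicate 2 (0.137) and without corticosterone replicate 1 (adjusted p 0.078), 2 (0.063) or 3 (0.0996). The *Scara5* call was lost without vehicle replicate 1 (adjusted p 0.0766) or 2 (0.068) and without corticosterone replicate 1 (0.0549) or 3 (0.0623). The count of called genes became 0 without vehicle replicate 2, 1 without corticosterone replicate 1 or 3, 2 without corticosterone replicate 2 and 4 without vehicle replicate 3.

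The other 7 genes were not called by edgeR. *Moxd1* stood at 0.503, 0.311 and 8.07 CPM in vehicle and 87, 22.8 and 9.38 CPM in corticosterone livers, with a difference of 3.74 (SE 1.19, adjusted p 0.0996). *Mfsd2a* stood at 53.1, 24.2 and 6.02 CPM against 133, 165 and 167 CPM (2.48, SE 0.63, adjusted p 0.0565). Vehicle replicate 3 was the highest of its group for *Moxd1* and the lowest for *Mfsd2a*. *Srrm4* stood at 2.01, 1.86 and 0.615 CPM against 4.7, 13.6 and 4.65 CPM (2.35, SE 0.58, adjusted p 0.0534), and *Cdip1* at 75.1, 70 and 57.6 CPM against 117, 205 and 92.6 CPM (1.03, SE 0.29, adjusted p 0.0722). For both genes the groups did not overlap and corticosterone replicate 2 stood highest.

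*Tango2* stood at 29.6, 32.6 and 32.7 CPM in vehicle and 36.3, 43.9 and 31.1 CPM in corticosterone livers, so that the groups overlapped (0.23, SE 0.14, adjusted p 0.359 by edgeR). The same gene more than doubled on cal. res. in the diet experiment, but the experiments were separate and the difference between them was not tested. *Gfra1* and *Nucks1* differed by 0.47 (SE 0.13, adjusted p 0.0752) and 0.34 (SE 0.12, adjusted p 0.116). Hepatocyte marker sums overlapped between vehicle (103484.9, 97907 and 102909.1 CPM) and corticosterone livers (104753.5, 103319.9 and 96529 CPM), while Kupffer (ratio of means 1.37) and neutrophil sums (1.98) were higher with corticosterone without overlap, and endothelial (0.795) and erythrocyte sums (0.56) lower. Their part in the results was not tested.

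**Figure D3:**
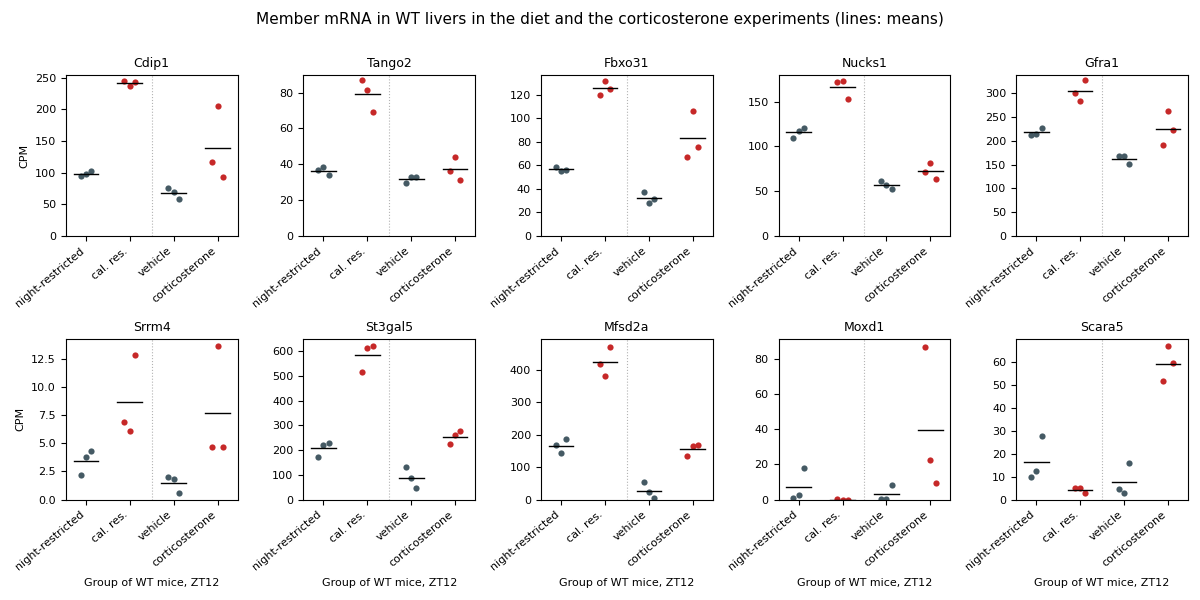
CPM (y axis, from 0) of each gene in WT livers at ZT12; points are livers and lines are means of the night-restricted and cal. res. groups of the diet experiment, left of the dotted line, and of the vehicle and corticosterone groups, right of it. *Scara5* is lower on cal. res. and higher with corticosterone, and the *Tango2* groups overlap with corticosterone.

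Other genes of GR signalling give the scale. Of 26 classical GR targets, 19 were lower and 1 higher in GR LKO over the 5 other time points on cal. res. (median -0.52), where 13.6% and 12.4% of all genes were, and 9 lower and 1 higher on ctrl. (median -0.29), where 6.97% and 8.42% were. On ctrl. they included *Fkbp5* (-0.87, SE 0.15, adjusted p 7.1e-05 by edgeR) and *Per1* (-0.87, SE 0.18, adjusted p 0.00093). In the diet experiment 22 were higher and 1 lower (median 1.29, and 0.00 over all genes), against 23.5% and 23.6% of all genes, and with corticosterone 21 were higher and 1 lower (median 2.04, and -0.01 over all genes), against 4.47% and 3.64%.

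Of 48 paralogs and pathway partners of the 10 genes, 33 were tested on cal. res. and 34 on ctrl.; 7 were higher and 2 lower in GR LKO on cal. res. over the 5 other time points (median 0.02), against 12.4% and 13.6% of all genes, and 8 higher and 3 lower on ctrl. (median -0.01), against 8.42% and 6.97%. *Elovl5* and *Fads2*, enzymes that make the long-chain fatty acids that *Mfsd2a* carries, were among those higher, by 0.98 (SE 0.10, adjusted p 1.6e-08 by edgeR) and 0.61 (SE 0.10, adjusted p 3.1e-05) on cal. res. and by 0.94 (SE 0.11, adjusted p 1.5e-07) and 0.34 (SE 0.09, adjusted p 0.00628) on ctrl. Partners called in the other experiments were 11 higher and 5 lower of 35 with diet (23.5% and 23.6% of all genes), and 2 higher and 1 lower of 34 with corticosterone (4.47% and 3.64%).

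Since *Cdip1* was described as a p53 target, 18 other p53 targets were read. In GR LKO livers 2 of 17 tested were higher and 1 lower over the 5 other time points on cal. res. (median 0.07), against 12.4% and 13.6% of all genes, and 1 was higher and 0 lower on ctrl. (median 0.06), against 8.42% and 6.97%. On cal. res. *Eda2r* and *Ccng1* were higher and *Mdm2* lower, and on ctrl. *Ccng1* was higher by 0.15 (SE 0.04, adjusted p 0.0135 by edgeR). With diet 7 of 18 were higher and 3 lower (23.5% and 23.6% of all genes), and with corticosterone 5 of 16 higher and 2 lower (4.47% and 3.64%). *Cdkn1a*, which is also on the list of GR targets, was higher in both (5.12 and 3.07).

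The 10 genes lie on 9 chromosomes, and the annotation (GENCODE vM21) places exons of other genes on exons of 4: *Hmox2* on the other strand over 892 bases of *Cdip1*, *Gm37676* over 507 bases of *Nucks1*, *Gm16277* over 416 bases of *Gfra1* and *Srrm4os* over 68 bases of *Srrm4*. No annotated gene overlaps *Mfsd2a*, *Moxd1* or *Scara5*.

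RefSeq promoters (GRCm38.p6, 250 bases before to 50 after the start) were found for 9 of the 10 genes, 12 sequences in all, and none for *Scara5*. They were searched on both strands for the palindrome that GR binds as a dimer, the inner letters of that palindrome and its single arm of 6 letters, and for a FoxO motif, a STAT motif and the E-box. The palindrome was in 0 of the 12 and in 0.00913% of all 32851 promoters, its inner letters in 0 and 0.475%, the FoxO motif in 0 and 3.65%, and the E-box in 0 and 7.15%. The single arm was in 1 of 12 (19% of all promoters) and the STAT motif in 1 of 12 (8.3%). Those 2 promoters are shown with their matches in capitals, a single arm of the GR palindrome 34 bases after the *Srrm4* start and a STAT motif 150 bases before that of *Moxd1*. A match is a string of letters and not a shown binding site, and the window leaves out distal elements.
Srrm4 promoter, chr5:116591768-116592067, minus strand: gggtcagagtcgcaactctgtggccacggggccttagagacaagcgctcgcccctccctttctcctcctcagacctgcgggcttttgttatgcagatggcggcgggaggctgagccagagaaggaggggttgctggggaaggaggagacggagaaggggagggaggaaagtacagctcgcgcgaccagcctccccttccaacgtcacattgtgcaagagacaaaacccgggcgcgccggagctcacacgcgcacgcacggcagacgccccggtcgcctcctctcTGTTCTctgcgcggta
Moxd1 promoter, chr10:24223267-24223566, plus strand: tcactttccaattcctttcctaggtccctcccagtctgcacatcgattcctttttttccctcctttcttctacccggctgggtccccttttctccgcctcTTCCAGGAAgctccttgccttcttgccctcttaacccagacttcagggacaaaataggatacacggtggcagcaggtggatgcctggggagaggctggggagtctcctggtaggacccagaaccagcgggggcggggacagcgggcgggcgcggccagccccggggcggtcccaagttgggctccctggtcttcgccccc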

How the data were processed

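The authors quantified polyadenylated RNA of mouse livers (mm10) with Salmon and deposited 4 tables of expected counts per gene; a deposited table of variance-stabilized values of the corticosterone libraries was left out, since counts were needed for the tests. The transcript annotation is not stated. Median depth was 17386700 counts on cal. res., 13427104 on ctrl., 37407547 in the diet and 14431388 in the corticosterone experiment. Expected counts were rounded, filtered (filterByExpr, minimum count 10), scaled by TMM and tested with edgeR 4.0.16 quasi-likelihood tests in R 4.3.3, with Benjamini-Hochberg adjustment over all genes and a threshold of 0.05. Log2 CPM used a prior count of 2.

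Livers were grouped by genotype, diet and time. The genotype difference was tested at each time point but ZT12 and over the 5 together, with its interaction with diet; time of day, diet and corticosterone were tested apart. Replicate numbers do not pair livers in the 14 comparisons checked. Alternatives, chosen before the data were examined, were DESeq2 1.42.0, RLE scaling, no filter, a replicate block, 1 fit of the 5 time points and leaving out libraries. The 10 genes and the gene lists were chosen with earlier results of these data known, and each of the 10 is named. EdgeR and DESeq2 were tested on simulated data. The result of 1 list of marker genes is not reported here.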

Additional observations from a re-analysis of the deposited data

Results flagged for a closer look

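The 10 genes in 6 groups of 4 livers on ctrl. give 60 sets of 4 values, which share livers. In 10 sets a value lay far from the other 3, by a gap past Dixon's 95% critical value. Of these, 3 are at ZT12, whose values chose the genes, and are given as a description. In 1 more, a single liver had any count, so that the gap had to be the whole range. The other 39 sets held 6. Dixon's value assumes independent values from a normal distribution. These sets are CPM of genes that share livers, and WT replicate 2 at ZT20 is behind several of the 6. The count is therefore not set against a rate by chance.

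At ZT12 in WT livers, *Cdip1* was 144 CPM in replicate 4 (others 129 to 130.0), *Scara5* was 44.1 CPM in replicate 4 (others 18 to 19.1) and *Gfra1* was 150.4 CPM in replicate 1 (others 219 to 224). At ZT16, *Scara5* was 28.6 CPM in WT replicate 3 (others 8.16 to 11). At ZT20 in WT livers, *Cdip1* was 95.9 CPM in replicate 1 (others 77.4 to 78.5), and replicate 2 held *Nucks1* at 62.7 CPM (others 71.5 to 72.6), *St3gal5* at 55.3 CPM (others 76.7 to 78.4) and *Moxd1* at 7.06 CPM (others 0.915 to 1.81). At ZT8, *Moxd1* was 5.18 CPM in WT replicate 1 (others 0 to 0.215) and 0.072 CPM, 1 count, in GR LKO replicate 1 (others 0).

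The genotype difference over the 5 time points other than ZT12 differed between the diets, which are also the 2 library sets, by the interaction term, for *Tango2* (-0.48) and *St3gal5* (-0.54). At ZT16 alone the fitted *St3gal5* difference was smaller on cal. res. (-0.94) than on ctrl. (-1.26). *Tango2* lost this call without replicate 2 (adjusted p 0.224) and *St3gal5* without replicate 1, 2 or 3 (adjusted p up to 0.507). What lies behind these values was not tested.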

How the results depend on the processing

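Scaling by RLE gave the same counts of called genes as TMM in the 19 tests. DESeq2 gave 4 at ZT0 and 4 at ZT4 on cal. res., 2 at ZT0 and 7 at ZT20 on ctrl. (*Moxd1* among them), and 7 with corticosterone (*Srrm4* among them); both genes passed edgeR's filter there through 1 group alone and add no support. Without the low-count filter the counts were 1 at ZT4 on cal. res., 1 at ZT0 on ctrl., 1 for the interaction and 5 with corticosterone. With a replicate block they were 0 at ZT0, 0 at ZT4, 5 at ZT8, 2 at ZT16 and 4 at ZT20 on cal. res. On ctrl. the block gave 0 at ZT8, 4 at ZT16 and 0 at ZT20, and with corticosterone it gave 2. Not every count that moved under the other alternatives is listed. In 1 fit of the 5 time points they were 4 at ZT4 on cal. res., and 2 at ZT0 and 1 at ZT8 on ctrl. The cause was not tested.

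With a library left out, in 100 fits, the counts ran from 0 to 2 at ZT0, 0 to 1 at ZT4, 2 to 6 at ZT8, 2 to 5 at ZT16 and 1 to 5 at ZT20 on cal. res. On ctrl. they ran from 0 to 2 at ZT8, 5 to 9 at ZT16 and 0 to 3 at ZT20. For time of day in GR LKO livers on ctrl. they ran from 2 to 6, for the interaction from 0 to 1 and with corticosterone from 0 to 4. These fits hold fewer samples. The livers are named beside the results. The counts over the 5 time points, 8 to 9 on cal. res. and 9 on ctrl., and with diet, 9 to 10, moved by at most 1.

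Of the values of single genes under an alternative, 1423 kept direction and side of the threshold, 184 lost a call, 34 gained one and 14 changed sign, in 10 results that were not called. With a library left out these ran as follows.
On cal. res.: *Scara5* at ZT0 from -3.30 to 0.0766, *Nucks1* at ZT4 from -0.0266 to 0.0183 and at ZT20 from -0.12 to 0.0488.
On ctrl.: *Fbxo31* at ZT0 from -0.15 to 0.0141, *Nucks1* at ZT4 from -0.0218 to 0.0896 and at ZT8 from -0.00144 to 0.0644, *Srrm4* at ZT4 from -0.43 to 0.12.
Interaction: *Srrm4* from -0.20 to 0.27, *Mfsd2a* from -0.85 to 0.64 and *Scara5* from -1.63 to 0.85. The cause was not tested. Leaving out the third vehicle liver of the corticosterone experiment was also singled out after the data were seen (4 genes called).

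Depth limits *Moxd1* on cal. res., where 0 counts allow up to 0.211 CPM, and *Scara5*, *Srrm4* and *Mfsd2a* where they stood at few counts. Groups of 3 or 4 livers leave small differences uncalled. Diet cannot be told apart from library set in the time series, WT livers of the time series carry the floxed allele but no Cre, and bulk RNA mixes cell types. Lower mRNA in GR LKO does not tell a direct from an indirect need for GR. The controls of the diet experiment are titled as fed freely and labelled night-restricted, and the label was followed; the methods describe free feeding before a last week of night feeding.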
